A study of Mus musculus with 4 samples.

Results

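The genes of the AP-1 transcription factors were followed across accessible chromatin in hippocampal neurospheres, free-floating cultures of neural progenitor cells from newborn mice. The members were 10 genes fixed by name, Jun, Junb, Jund, Fos, Fosb, Fosl1, Fosl2, Atf3, Batf and Jdp2. Every region of the count table whose nearest gene was one of them was taken, which gave 35 of 29121 regions. A region that came within 1 kb of its gene's start site was called a promoter region (10 regions) and any other a distal region (25 regions). Chromatin was measured by ATAC-seq, in which the transposase Tn5 cuts and tags open DNA, so that the tags in a region report its accessibility. The 2 control cultures came from C57BL/6 mice at P0 with the genotype hGFAPCre+, Fgf13+/y, and the 2 Fgf13cko cultures from mice with the genotype hGFAPCre+, Fgf13 flox/y. All 4 thus carried a Cre transgene driven by the human GFAP promoter, which is active in radial glia, so deletion is limited to cells of that lineage. All were grown for 7 days with FGF-2 and EGF, each at 20 ng/ml. Cells of 1 mouse filled 2 wells, and no label tells if a group's cultures were from different mice. The p-values therefore rest on the variation among these 4 cultures, some of which could be technical.

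AP-1 is a dimer of basic leucine zipper proteins. Jun proteins pair with each other or with Fos proteins, while Fos proteins need a Jun partner. The dimers bind the sequence TGA(C/G)TCA, searched for below with the wider pattern TGANTCA, or the related TGACGTCA. Fos, Junb and Jun are immediate early genes, switched on within minutes by growth factors and stress through MAP kinases, and in neural cells they respond to growth factors, to activity and to dissociation. Jund is expressed more evenly, Atf3 is a stress-induced partner of Jun proteins, Batf is a partner known from lymphocytes, and Jdp2 represses AP-1 targets.

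The promoter sequences are shown for the immediate early members on which the results turn and for Atf3, the promoter region with the highest log2 fold change. Each is the stretch of 250 bases before the start site, 5′ to 3′ on the gene's strand, from RefSeq (GRCm38.p6). Capitals mark TGACG, the core that TGACGTCA contains, and TGACATCA, the variant AP-1 motif known from the Jun promoter, on either strand.
Junb: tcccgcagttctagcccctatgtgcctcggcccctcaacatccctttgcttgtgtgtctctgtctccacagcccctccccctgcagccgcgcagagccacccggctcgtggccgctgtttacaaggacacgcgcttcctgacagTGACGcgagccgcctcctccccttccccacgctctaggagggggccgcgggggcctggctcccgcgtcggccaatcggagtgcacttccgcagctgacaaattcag
Fos: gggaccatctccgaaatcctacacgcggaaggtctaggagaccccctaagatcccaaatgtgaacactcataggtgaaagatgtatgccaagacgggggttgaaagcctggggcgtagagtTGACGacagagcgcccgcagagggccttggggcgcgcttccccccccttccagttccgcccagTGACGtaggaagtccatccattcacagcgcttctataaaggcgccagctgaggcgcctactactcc
Jun: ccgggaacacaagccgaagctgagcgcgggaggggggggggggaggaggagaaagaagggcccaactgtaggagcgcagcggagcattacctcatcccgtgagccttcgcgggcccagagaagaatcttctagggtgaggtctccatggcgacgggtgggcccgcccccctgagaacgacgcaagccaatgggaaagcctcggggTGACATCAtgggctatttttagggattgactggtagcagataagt
Atf3: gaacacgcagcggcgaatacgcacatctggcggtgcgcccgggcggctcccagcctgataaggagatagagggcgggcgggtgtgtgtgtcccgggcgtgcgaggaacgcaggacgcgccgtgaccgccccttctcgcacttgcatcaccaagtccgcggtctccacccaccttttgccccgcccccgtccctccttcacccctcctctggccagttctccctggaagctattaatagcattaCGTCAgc
The Junb stretch is chr8:84978749-84978998 (minus strand), that of Fos chr12:85473640-85473889 (plus), that of Jun chr4:95052223-95052472 (minus) and that of Atf3 chr1:191183334-191183583 (minus). Of the 10 members 9 had a promoter sequence in the RefSeq table. TGACG was found before 6 of these 9 genes, which have 11 windows in all, and in 17.7% of all 32817 promoter windows of this length. It lies 106 bases before the Junb start, 129 and 66 bases before the Fos start, where TATAAA follows at 33 bases, and 7 bases before the Atf3 start. TGACATCA was found 45 bases before the Jun start and in no other member window, against 2.93% of all windows. TGANTCA (6.75% of all windows), TGACGTCA (1.55%) and the CArG box (1.47%), the motif of serum response factor, were in 0 of the 9 members' windows on either strand, which says only that these letters are not in this stretch. A match is a description of the letters and not a binding site.

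All tags, by the column headers, came to 24.9 and 26.0 M in the control libraries against 16.8 and 13.1 M in Fgf13cko, so depth differed with the group. Library totals over nuclear regions alone ranged from 2.55 to 3.25 M tags. The median member region had 122 and 133 tags in control libraries, and 90.5 and 107 in Fgf13cko libraries, above the median of 57.0 to 72.0 over all nuclear regions. The mitochondrial share of all tags was 23.4% and 27.0% in the controls against 9.54% and 9.19% in Fgf13cko. Progenitor markers had a promoter region at 10 of 10 genes, with summed normalised counts of 1926 and 2281 in the control libraries against 2484 and 2026 in Fgf13cko. Neuronal markers had one at 5 of 8 genes (not at Dcx, Rbfox3 or Stmn2), with sums of 544 and 583 in the control libraries against 959 and 913 in Fgf13cko, where the promoters of Elavl4, Map2 and Syt1 rose in edgeR (adjusted p under 0.05). Of the microglial markers 1 of 8 had a promoter region, with 38.8 and 27.5 against 11.3 and 21.4, and the sum of 3 of 8 ependymal and choroid plexus markers was 224 in both controls against 259 and 225. Sums of the astrocytic, oligodendrocyte, meningeal and endothelial markers overlapped between the groups. Over all regions of each list, promoter and distal, 4 of 36 progenitor regions rose and 0 fell (Tnc 2.504, Nes 1.99 and Slc1a3 1.82 on the log2 scale among them). Of 21 neuronal regions 4 rose and 0 fell. Among all tested regions 5.73% rose and 1.79% fell. The risen progenitor regions were 4 of 26 distal ones, against 8.81% of all distal regions. Of 18 astrocytic regions 1 rose (distal Aldh1l1, 0.79) and 2 fell (distal Gfap, -1.09, and the Apoe promoter, -0.98). Of 27 oligodendrocyte regions 3 rose (distal Olig2, 1.11, and distal Olig1, 0.90 and 0.75) and 1 fell (the Gpr17 promoter, -1.18). Of 19 ependymal and choroid plexus regions 0 rose and 1 fell. The part of total depth, of the mitochondrial share and of other cell types in the results below was not tested. In bulk cultures, fewer cells with an open region and a less open region per cell cannot be told apart.

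Of the 35 member regions 2 rose and 5 fell in Fgf13cko, in edgeR's quasi-likelihood test with a Benjamini-Hochberg adjusted p under 0.05 over all 28814 tested regions. Over all tested regions 7.52% were called, 5.73% rose and 1.79% fell. The regions that fell were both promoter regions of Junb, a pair of regions beside Fos and a far upstream region of Jun, and those that rose lay downstream of Fos and within Jdp2. By class, 2 of 10 member promoter regions fell and 0 rose, against 0.854% and 1.24% of all promoter regions (2.09% called either way). Both lie at Junb, and HOMER's own annotation counts neither as a promoter. At an unadjusted p under 0.05, 4 of the 10 were lower and 0 higher, against 8.89% and 5.98% of all promoter regions. Of 25 distal regions 3 fell and 2 rose, against 2.43% and 8.81% of all distal regions (11.2% called either way). Unadjusted, 4 of the 25 were lower and 5 higher at p under 0.05, against 8.37% and 19.7% of all distal regions. The median log2 fold change was -0.17 over the member regions and -0.03 over all regions, and -0.32 over the member promoters against -0.09 over all promoters. Both Fgf13cko libraries lay below both controls at 14 of 35 member regions (40.0%), against 27.1% of all regions. They lay above both at 7 of 35 (20.0%), against 26.9% of all regions. The groups thus did not overlap at 21 of 35 member regions, against 54.0% of all regions. Among promoters both Fgf13cko libraries were below at 5 of 10 and above at 1, against 31.8% and 17.7% of all promoters (49.5% either way). Among distal regions they were below at 9 of 25 and above at 6, against 23.9% and 33.2% of all distal regions (57.1% either way).

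**Figure D1:**
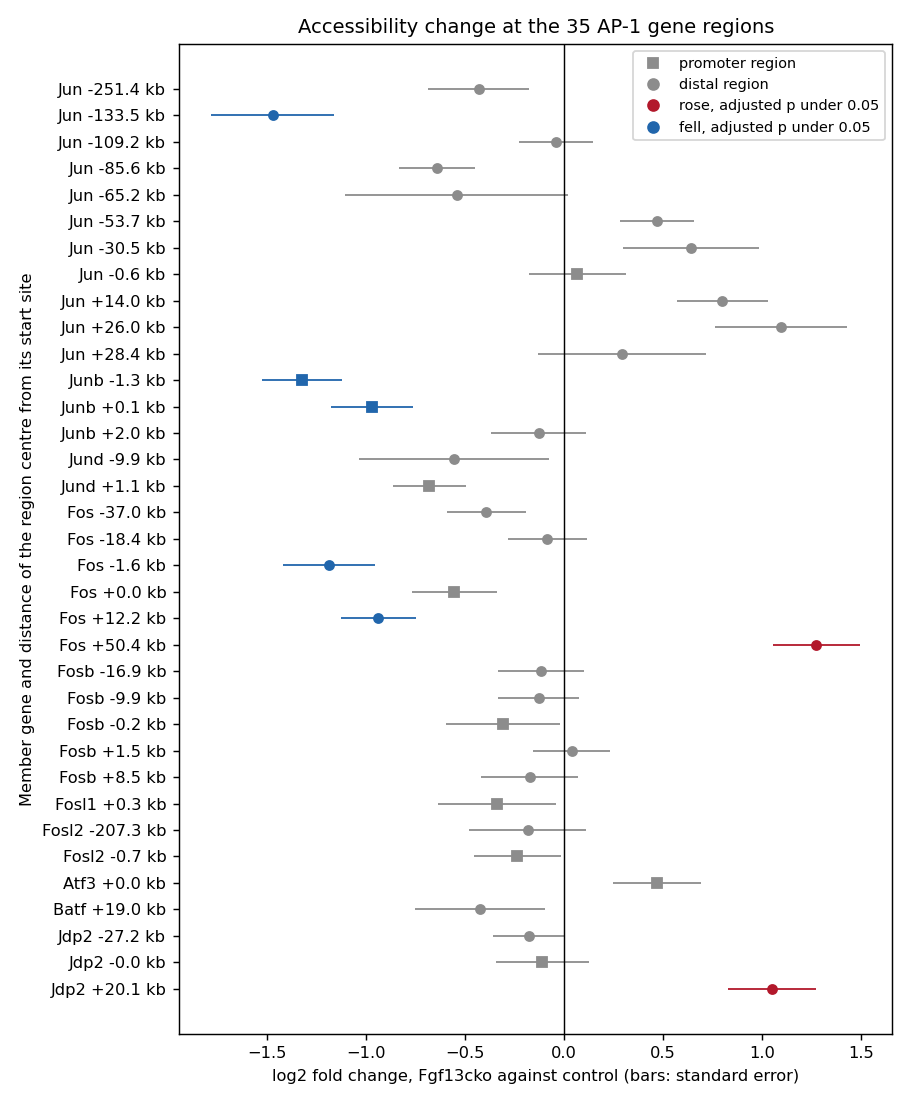
Log2 fold change of accessibility, Fgf13cko against control (2 libraries each), for the 35 regions, with the standard error as bars, squares for promoter and circles for distal regions. The coloured points are the 2 regions that rose and the 5 that fell, from -1.47 at the far upstream Jun region to 1.27 downstream of Fos.

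Junb, an immediate early gene whose protein often restrains growth, had the member region with the smallest p. The region centred 1296 bases upstream of its start (chr8:84979740-84980348, intergenic) held 158 and 152 normalised tags in control 1 and 2, and 59.6 and 65.2 in Fgf13cko 1 and 2. Normalised tags are tags divided by the relative effective library size. Both controls were thus above both Fgf13cko libraries, by a fitted 2.497-fold (log2 fold change -1.32, SE 0.20, adjusted p = 0.00799). The start site region itself (chr8:84978285-84978951, centred in the 5′ UTR of the single exon, and covering 203 of the 250 bases printed above) held 218 and 171 in the control libraries against 103 and 96.0 in Fgf13cko. The groups again did not overlap, and the log2 fold change was -0.97 (SE 0.21, adjusted p = 0.0253). The third Junb region spans the end of the gene (chr8:84975868-84977608, distal) and held 284 and 324 against 340 and 218. Here the Fgf13cko libraries lay on both sides of the controls (log2 fold change -0.13, adjusted p = 0.802). Whether the gene end differed from the start site was not tested.

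Jund, the more steadily expressed Jun gene, had a region that began 653 bases downstream of its start site (chr8:70698392-70699350, in the 5′ UTR of its single exon by the annotation). It held 314 and 296 against 202 and 179. The groups did not overlap, but the region did not pass (log2 fold change -0.68, SE 0.19, adjusted p = 0.0618). The 250 bases before the Jund start lie in neither of its regions. The distal Jund region 9949 bases upstream was among the least accessible members, at 39.3 and 27.97 against 16.4 and 28.7 (log2 fold change -0.56, adjusted p = 0.545).

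**Figure D2:**
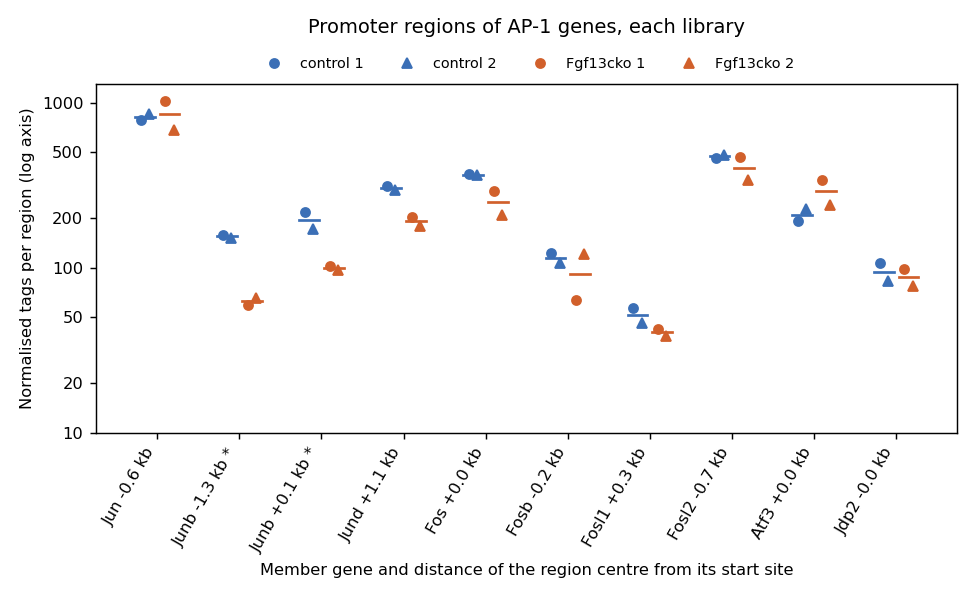
Normalised tags (log axis) in each library for the 10 promoter regions, with the distance of the region's centre from the start site in kb. Lines are group means (n = 2) and asterisks mark regions with an adjusted p under 0.05; at both Junb regions the 2 Fgf13cko libraries lie below the 2 controls.

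Jun, the founding member, had 11 regions spread from 251.4 kb upstream to 28.4 kb downstream on chromosome 4. Its promoter region (chr4:95051712-95053892) was the widest member at 2181 bases and held 779 and 854 in the control libraries against 1028 and 683 in Fgf13cko. The Fgf13cko libraries lay on both sides of the controls (log2 fold change 0.07, SE 0.24, adjusted p = 0.904). The 10 distal regions had log2 fold changes of both signs, 5 above and 5 below 0. The one that fell lies 133 kb upstream (chr4:95185249-95186103, intergenic) and held 69.7 in both controls against 28.9 and 20.3 in Fgf13cko (log2 fold change -1.47, SE 0.31, adjusted p = 0.0245). This was the lowest log2 fold change of the 35 regions, at 25.5 and 19.5 raw tags in Fgf13cko 1 and 2.

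The other Jun regions did not pass. The strong region 85.6 kb upstream held 235 and 203 in the control libraries against 130 and 150 in Fgf13cko (-0.64 on the log2 scale, adjusted p = 0.0824). Nearer to the gene, the region 53.7 kb upstream held 173 and 167 against 255 and 218 (0.47, adjusted p = 0.172), and the one 30.5 kb upstream 30.4 and 26.7 against 42.5 and 46.4 (0.64, adjusted p = 0.312). In these 3 regions the groups did not overlap, as at 57.1% of all distal regions.

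Downstream of Jun, the region at 14.0 kb held 71.2 and 88.6 in the control libraries against 158 and 120 in Fgf13cko (0.80, adjusted p = 0.0719). The region at 26.0 kb held 33.4 and 40.4 against 57.3 and 101 (1.09, adjusted p = 0.0854). Both had higher values in both Fgf13cko libraries, as did 33.2% of all distal regions. At 28.4 kb, in an L2 LINE element, the Fgf13cko libraries parted, with 33.5 and 94.9 around controls of 56.0 and 50.3. The remaining Jun regions, at 251.4, 109 and 65.2 kb upstream, had log2 fold changes between -0.54 and -0.04. Whether the upstream and downstream regions of Jun differed in their response was not tested.

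**Figure D3:**
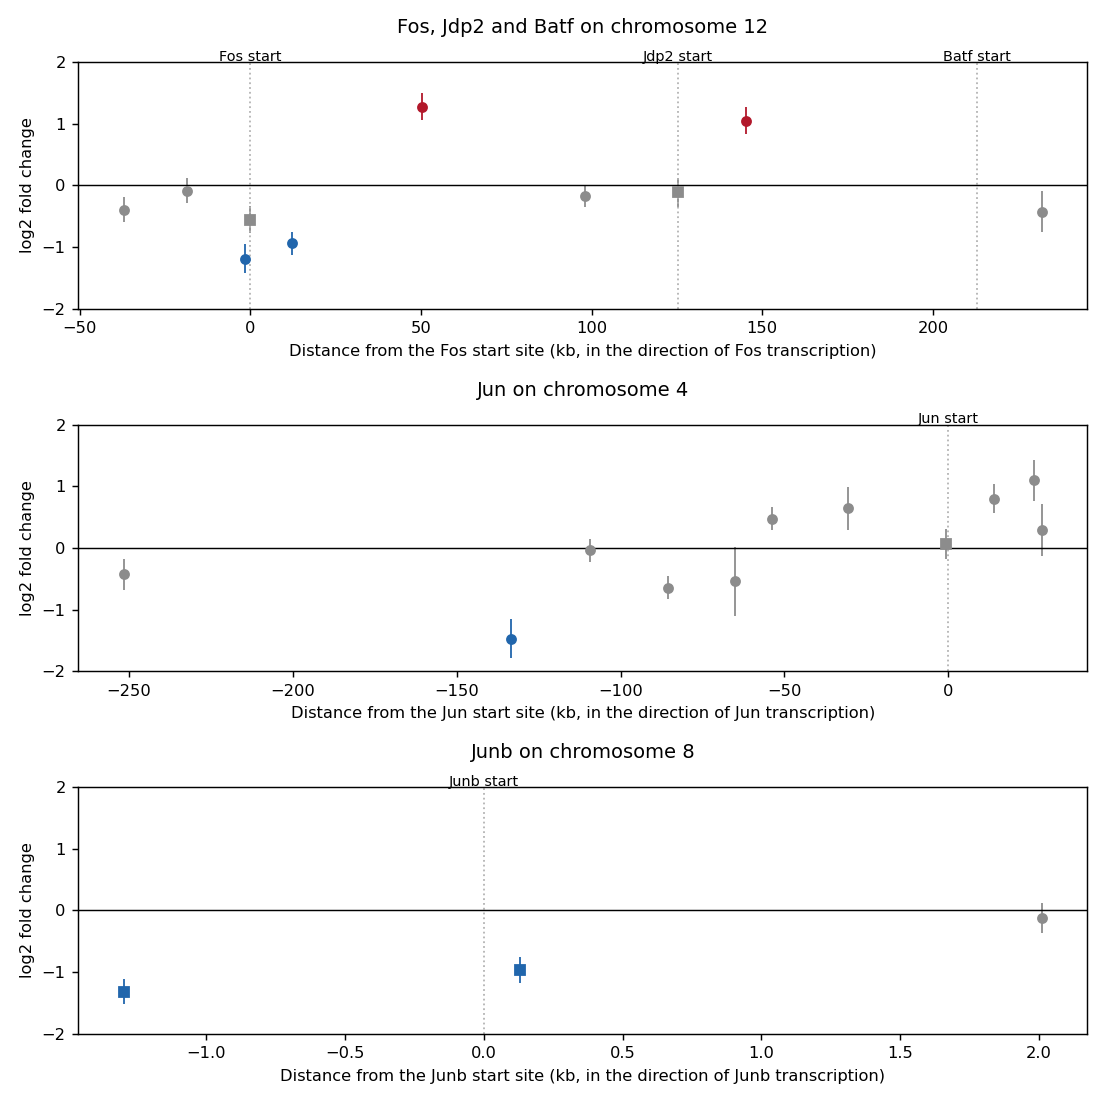
Log2 fold change with its standard error (bars) of each region against its distance in kb from the start site of Fos (with Jdp2 and Batf in the same panel), Jun or Junb, with squares for promoter and circles for distal regions. Regions that rose are red and those that fell blue; beside the Fos start 2 regions are at -1.19 and -0.94, and the region 50.4 kb downstream is at 1.27.

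Fos, the prototype immediate early gene, had 6 regions and the most calls, 2 fallen and 1 risen, all distal. The region centred 1637 bases upstream of the start (chr12:85471966-85472541, in a CpG island by HOMER's annotation) held 186 and 188 in the control libraries against 64.7 and 99.1 in Fgf13cko. It was 2.27-fold lower (log2 fold change -1.19, SE 0.23, adjusted p = 0.0184), with the groups apart. The region 12.2 kb downstream (chr12:85485741-85486478, likewise in a CpG island by HOMER) held 249 and 291 against 139 and 144 (log2 fold change -0.94, SE 0.19, adjusted p = 0.0203). The region 50.4 kb downstream (chr12:85523572-85525066, centred in a B4 SINE element) went the other way, from 46.6 and 53.4 to 129 and 115 (log2 fold change 1.27, SE 0.22, adjusted p = 0.0120). In each of these 3 regions both libraries of 1 group lay above both of the other, as at 57.1% of all distal regions.

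The Fos promoter region (chr12:85473263-85474561) held 367 and 364 in the control libraries against 290 and 208 in Fgf13cko. Both Fgf13cko libraries were lower, but their own spread was wide, and the region did not pass (log2 fold change -0.55, SE 0.21, adjusted p = 0.164). The region 18.4 kb upstream had the highest level per kb of any member, above 99.0% of all nuclear regions, and held 416 and 412 against 433 and 348 (-0.08, adjusted p = 0.846). The region 37.0 kb upstream held 110 and 120 against 91.3 and 84.5 (-0.39, adjusted p = 0.288).

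The other Fos genes had 0 called regions out of 8, where 7.52% of all regions were called. Fosb, whose truncated product builds up with repeated stimulation of neurons, had 5 regions within 16.9 kb of its start, with log2 fold changes between -0.31 and 0.04. Its promoter region (chr7:19309993-19310559) held 122 and 106 in the control libraries against 63.5 and 120 in Fgf13cko, so that 1 Fgf13cko library lay below both controls and the other between them (adjusted p = 0.581). Fosl2, a later-acting Fos relative, had a strong promoter region (chr5:32135129-32136425) with 463 and 481 against 467 and 337 (-0.23, adjusted p = 0.578). Its distal region lies 207 kb upstream in an intron of another gene and had -0.18 (adjusted p = 0.769). Fosl1, a gene of proliferating and invasive cells, had a single weak region over its first exon (chr19:5447493-5448551), with 57.0 and 46.0 against 42.5 and 38.6 (-0.34, adjusted p = 0.552).

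Jdp2 and Batf follow Fos on chromosome 12, with the Jdp2 start 125 kb beyond that of Fos and the Batf start 87.6 kb further on. The intronic region of Jdp2 20.1 kb past its start (chr12:85619654-85620641) rose from 52.0 and 66.3 in the controls to 126 and 119 in Fgf13cko, 2.07-fold in the fit (log2 fold change 1.05, SE 0.22, adjusted p = 0.0245). The groups did not overlap. The Jdp2 promoter region (chr12:85598644-85600173) held 106 and 83.0 against 97.6 and 77.7 (-0.11, adjusted p = 0.829), and the region 27.2 kb upstream 188 and 186 against 175 and 156 (-0.17, adjusted p = 0.627). Batf had no promoter region in the table. Its intronic region held 55.5 and 41.3 in the control libraries against 31.2 and 39.1 in Fgf13cko (-0.42, adjusted p = 0.496). The Atf3 promoter region (chr1:191182455-191184203), its only one, held 191 and 226 against 339 and 240. Both Fgf13cko libraries were higher, without passing (0.47, SE 0.22, adjusted p = 0.250).

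**Figure D4:**
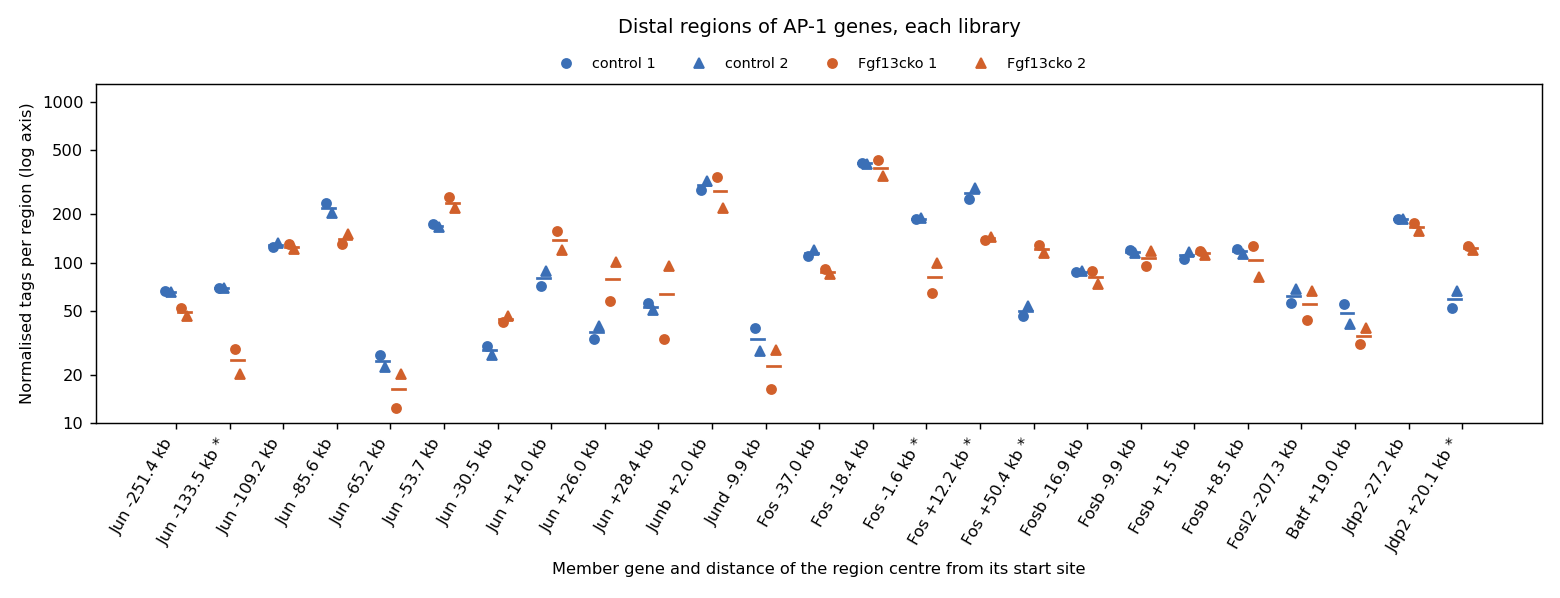
Normalised tags (log axis) in each library for the 25 distal regions, with the distance of the region's centre from the start site in kb. Lines are group means (n = 2) and asterisks mark the 5 regions with an adjusted p under 0.05; of these, the 3 fallen regions lie at Jun and Fos and the 2 risen ones at Fos and Jdp2.

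Per kb of region, the promoter regions spanned a wide range of accessibility. In the controls Jun led with 374 ± 24.4 normalised tags per kb (SD, n = 2), followed by Fosl2 with 364 ± 10.1, and these overlapped. Jund (318 ± 13.4), the Junb start site (291 ± 49.5) and Fos (281 ± 1.77) came next, each overlapping its neighbour, then the upstream Junb region (255 ± 7.22), Fosb (201 ± 19.3) and Atf3 (119 ± 14.5). Jdp2 (61.8 ± 10.6) and Fosl1 (48.6 ± 7.29) were lowest, and did not overlap. In Fgf13cko Jun (392 ± 112) and Fosl2 (310 ± 70.8) again led and Jdp2 (57.3 ± 9.17) and Fosl1 (38.3 ± 2.63) were again last. The Junb start site stood seventh there, at 149 ± 7.09, and the upstream Junb region eighth, at 102 ± 6.55. Between them and Fosl2, Jund (199 ± 17.0), Fos (192 ± 44.5), Atf3 (166 ± 40.1) and Fosb (162 ± 70.4) overlapped from neighbour to neighbour, and Fosb overlapped the Junb start site.

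The promoter regions of other genes whose 4 library values were most like those of the upstream Junb region, by the distance between their deviations in log2 normalised tags, were those of Sbno2 (distance 0.070), Apoc1 (0.12), Taf7 (0.15) and Tmem145 (0.18). Sbno2 held 167 and 168 in the control libraries against 62.4 and 72.0 in Fgf13cko. They were chosen for this likeness, over only 4 libraries, so their values are a description.

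The lists of peaks called in each library hold accessible stretches that are not in the count table, whose 29121 regions each overlap a peak in all 4 lists. Nearest to a member's start site lay 12 such stretches. Peaks in both controls and in neither Fgf13cko list were found at 2 of them, 18.5 kb from the Fos start (-log10 q of 2.66 and 1.55) and 3.23 kb from that of Fosl2 (3.61 and 1.21). Peaks in both Fgf13cko lists and in neither control list were also found at 2, 5.79 kb from the Fos start (2.78 and 5.74) and 30.2 kb from that of Jdp2 (1.87 and 2.63). Over all 50956 stretches outside the table, these patterns made up 2.77% and 19.3%. A peak in 1 library only was found at 5 of the 12 stretches, and other combinations at 3, against 50.2% and 27.7% of all stretches. The lists differ in length, with 38006 and 47148 control peaks against 64954 and 54373 Fgf13cko peaks. The peak values are those of the deposited lists and were not compared between lists.

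Genes around AP-1 were described from lists of other factors, kinases, targets and early genes. Among 92 regions of other basic leucine zipper factors 5 rose and 2 fell, or 5.43% and 2.17%, near the 5.73% and 1.79% of all regions, and the median log2 fold change was -0.06. The regions named from these lists are examples and set no list apart. A distal region of Maf rose from 90.3 and 105 to 255 and 205 (1.23, adjusted p = 0.0105) and one of Creb5 from 72.2 and 58.1 to 161 and 163 (1.31, adjusted p = 0.00914), both genes for relatives of AP-1 proteins. A second Maf region rose as well (1.20, adjusted p = 0.0181). Creb3l2 had a fallen promoter (-0.88, adjusted p = 0.0342) and a risen distal region (1.09, adjusted p = 0.0345), and Maff, a small Maf gene, a fallen promoter (-0.78, adjusted p = 0.0412; named after its value was seen).

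Of 61 regions of upstream kinases and serum response factors 4 rose and 0 fell (median -0.12). These are 6.56% and 0%, against 5.73% and 1.79% of all regions. The risen ones were 3 distal regions of the kinase gene Map3k7 (1.25, 0.93 and 0.86, adjusted p = 0.0186, 0.0427 and 0.0432) and 1 promoter, that of the cofactor gene Mkl2 (0.93, adjusted p = 0.0467). At an unadjusted p under 0.05, 6 regions of that list were higher and 3 lower, against 14.1% and 8.58% of all regions. Of 48 regions of textbook AP-1 target genes 4 rose and 0 fell (median -0.06), or 8.33% and 0%, against 5.73% and 1.79% of all regions. Among the 32 distal ones 3 rose, or 9.38%, near the 8.81% of all distal regions. At an unadjusted p under 0.05 in edgeR, 4 of the 48 were higher and 5 lower. The risen ones were a distal region of the sphingosine kinase gene Sphk1 (1.78, adjusted p = 0.00878), the promoter of Lgals1, a galectin gene (1.04, adjusted p = 0.0159), and distal regions of the cyclin gene Ccnd1 (1.13 and 0.92, adjusted p = 0.0175 and 0.0334).

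Other immediate early and dissociation genes had 117 regions, of which 5 rose and 7 fell (median -0.16). These are 4.27% and 5.98%, against 5.73% and 1.79% of all regions. At an unadjusted p under 0.05 in edgeR, 12 were higher and 24 lower, against 14.1% and 8.58% of all regions. Here too both directions occurred. A distal region of Klf10 rose most (1.88, adjusted p = 0.00390), while distal regions of the antiproliferative gene Btg1 (-1.66 and -1.41, adjusted p = 0.00479 and 0.0129) and of the orphan receptor genes Nr4a1 (-1.997, adjusted p = 0.0118) and Nr4a2 (-1.14, adjusted p = 0.0238) fell. The promoter of Zfp36, which encodes a protein that destabilises AU-rich messages, fell from 113 and 104 to 43.1 and 55.8 (-1.12, adjusted p = 0.0246). These lists share members: Maff is on the first and the last.

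The 7 calls among AP-1 regions were made only with both controls in the fit, as were most calls over all regions. Without a control, the replicate spread came from the 2 Fgf13cko libraries alone. The log2 fold change without control 1 and 2 was -1.29 and -1.35 at the upstream Junb region, and -0.78 and -1.14 at the Junb start site. Without control replicate 1, 0 of the 35 regions passed in edgeR (adjusted p from 0.0683 to 0.326 for the 7), and without control replicate 2 again 0 (0.0758 to 0.322), with 7 and 10 regions at an unadjusted p under 0.05, against 11.1% and 10.7% of all regions in these fits. Without Fgf13cko replicate 1, 5 rose and 10 fell, and without Fgf13cko replicate 2, 6 rose and 8 fell, the same 7 among them each time, where 24.3% and 35.1% of all regions were called. All 7 kept their sign in each of these fits, in which the lone library of a group is assumed to vary like the other group. The groups did not overlap at any of the 7, so leaving out 1 library could hardly have turned a sign. In the DESeq2 Wald test the Jun region 133 kb upstream (adjusted p = 0.0649) and the Jdp2 region (adjusted p = 0.0632) did not pass.

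**Figure D5:**
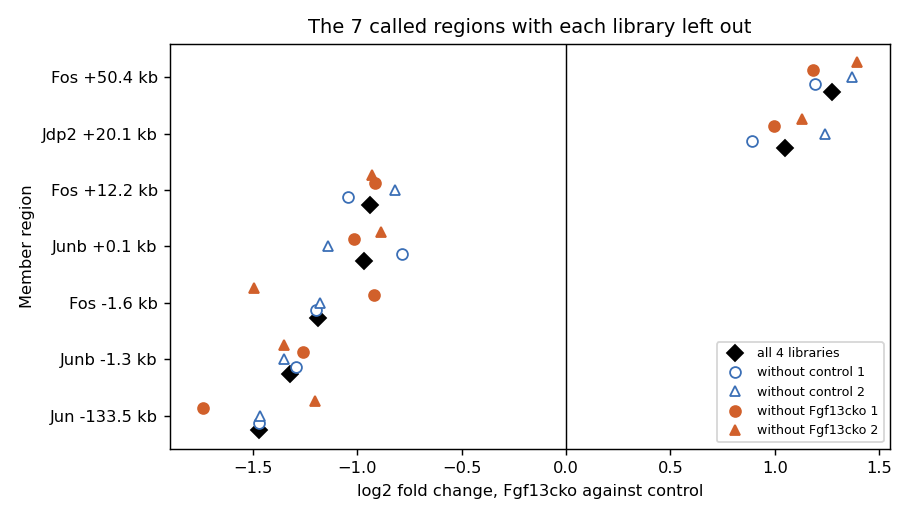
Log2 fold change of the 7 called regions with all 4 libraries (diamonds) and with each library left out (circles and triangles), filled where the adjusted p was under 0.05. All points keep their side of 0, which groups that do not overlap largely fix in advance, and the fits without a control are open.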

How the data were processed

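ATAC-seq tags were analysed in 2 control and 2 Fgf13cko cultures, grouped by sample title. The deposited table holds estimated counts: raw tags per merged broad peak, assigned by HOMER on mm10 without normalisation, per the file headers. Every value is a multiple of 0.5, and counts were rounded for the tests. The deposited peak lists give, in broadPeak column order, a score, a fold enrichment (a ratio), and the −log10 p and −log10 q of each peak. HOMER, MACS2, Bowtie2, Picard and DESeq2 appear in the submitters' processing notes. No source used here states their versions, a shift for the transposase or how duplicates were treated.

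The 2 mitochondrial regions name no gene and were left out of library sizes and tests. edgeR 4.0.16 in R 4.3.3 was used (glmQLFit with robust estimation, glmQLFTest, two-sided, TMM, filterByExpr), with all nuclear regions in 1 fit. All 35 member regions passed the filter on low counts. SE is the log2 fold change divided by the square root of F. Replicates differed beyond sampling noise (chi-square per region of 1.69 for controls, 5.60 for Fgf13cko), and none were merged. Scripts were tested on simulated data. Alternatives used DESeq2 1.42.0, limma 3.58.1, other scalings and filters, a replicate block and each library left out.

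Promoter sequences came from RefSeq (GRCm38.p6), and nearest genes from the table. Peaks outside the table were assigned to the nearest RefSeq start site. Every member region is accounted for. Named in full were the regions nearest the start sites, those past the threshold and, per gene, that with the smallest p. From each related list, called regions were named, up to 6 by p, except 1 that is not reported here. The members and lists were chosen with earlier results of these data known.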

Additional observations from a re-analysis of the deposited data

How the results depend on the processing

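The 2 risen and 5 fallen AP-1 regions were also counted with relative log expression size factors, with mitochondrial regions kept in, without a filter, with a mean of at least 20 tags and with promoters and distal regions fitted separately. With library size as the only scaling and in limma-voom 6 fell, and with a loess offset 8 fell, among them the promoters of Fos (adjusted p = 0.0240) and Jund (0.0107). In the DESeq2 Wald test 1 rose and 4 fell, and 3 uncalled regions had no adjusted p. Leaving out 1 library gave 0 to 6 risen and 0 to 10 fallen regions. The causes were not tested. With the replicate number as a block 4 rose and 5 fell. The labels do not say that the numbers pair cultures, and the deviations of same-numbered libraries correlated at -0.23. Over all regions 1651 rose and 517 fell, against 2087 and 1156 with the loess offset, 1489 and 789 in the separate fits, 1184 and 318 in DESeq2, 2224 and 1082 with the block, 319 and 68 or 115 and 23 without control 1 or 2, and 4064 and 2948 or 5267 and 4853 without Fgf13cko 1 or 2. A crossed pairing, chosen after seeing the data, gave 3 risen and 7 fallen.

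The 7 called regions kept their sign under every alternative run. With 1 library left out this was largely fixed in advance, as their groups did not overlap. Signs turned at regions that were not called and whose groups overlapped. The Fosb region 1.51 kb downstream was at -0.056 with the loess offset and -0.064 in the separate fits. With 1 library left out it spanned -0.028 to 0.12, and the other Fosb regions -0.25 to 0.045 (16.9 kb upstream), -0.26 to 0.020 (9.95 kb upstream), -0.80 to 0.071 (promoter) and -0.53 to 0.16 (8.49 kb downstream). In the same fits the Jun regions spanned -0.086 to 0.039 (109 kb upstream), -0.26 to 0.37 (promoter) and -0.59 to 0.84 (28.4 kb downstream), the Junb gene end -0.49 to 0.20, the Fos region 18.4 kb upstream -0.25 to 0.10, Fosl2 -0.50 to 0.088 (distal) and -0.49 to 0.021 (promoter), and the Jdp2 promoter -0.28 to 0.093. By HOMER's own annotation 6 member regions were promoters, and with centres within 2.5 kb 13. The fallen Junb regions were not among HOMER's 6, nor was any other called region. The 13 included both fallen Junb regions and the fallen Fos region 1637 bases upstream. Among the 12 peak stretches that the table lacks, 8 had a −log10 q of at least 2. With 2 libraries a group and under 30 tags at the weakest members, small differences were not detectable.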
